A study of Rattus norvegicus with 6 samples.

Results

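The aquaporins and the vasopressin receptors of the kidney were examined in the renal cortex of rats given N,N'-dinitrosopentamethylenetetramine (DNPT), an N-nitroso compound. The 9 genes, Aqp1, Aqp2, Aqp3, Aqp4, Aqp6, Aqp7, Aqp11, Avpr2 and Avpr1a, were taken by name, through the RefSeq accession that each array probe carries. They were chosen with earlier results of these data known. All 9 of the 9 genes were on the array, among 15645 genes matched in all, with 17 of its 61537 non-control probes. The study holds 6 male Sprague-Dawley rats, 5 weeks old at purchase, and their age at the end of dosing is not stated. The vehicle group of 3 rats received corn oil for 4 weeks, and the DNPT group of 3 rats received 200 mg/kg/day of the compound over the same 4 weeks. RNA of each rat was hybridised to its own 1-colour Agilent array.

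Aquaporins are channels through which water crosses cell membranes, and some of them, the aquaglyceroporins, also pass glycerol. In the proximal tubule and the thin descending limb, Aqp1 carries the bulk of water reabsorption. In principal cells of the collecting duct, vasopressin binds its V2 receptor (Avpr2), cAMP and protein kinase A are activated, and Aqp2 moves to the apical membrane and is transcribed more, while water leaves the cell through Aqp3 and Aqp4 on the basolateral side. Loss of Aqp2 or Avpr2 function causes nephrogenic diabetes insipidus.

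The vehicle arrays had from 44730 to 45167 probes well above background and the DNPT arrays from 42116 to 43402, and the 75th percentile of the processed signal was 1164 to 1329 on the former and 953 to 1112 on the latter. DNPT arrays were thus dimmer in both measures without overlap, and the part of this in the changes below was not tested. Precision is limited by the small number of arrays. Slide 1, scanned on the first day, held the 3 vehicle rats and DNPT replicate 1, and slide 2, scanned on another day, held DNPT replicates 2 and 3, so that only DNPT replicate 1 can be set against vehicle within a slide. Signals are given as log2, with the array's own 75th percentile subtracted (log2 signal). A change is the DNPT mean minus the vehicle mean, with its standard error (SE) from the limma fit over all features. Levels of different probes were not compared, since probes differ in brightness for the same amount of RNA. All 5 markers of the first proximal tubule segments and all 4 of the thick ascending limb were well above background on the 6 arrays, with median changes of 0.091 and -0.15, as were 2 of 3 for the distal convoluted tubule (median 0.26), in which Pvalb was not above background on any array. These medians depend on the scaling, since the 100 brightest features had a median change of 0.14 with the scaling used here and 0.010 with quantile normalization, under which the first proximal segments were at 0.0023 and the thick limb at -0.25. In the thick limb the potassium channel Kcnj1 was at -0.35 (SE 0.14) and Umod at -0.17 (SE 0.15), and in the distal tubule Calb1 was at 0.64 (SE 0.22) and Slc12a3 at -0.11 (SE 0.16). All 5 genes used for the inner medulla were above background as well, although the labels name cortex.

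None of the 9 genes passed limma's test after Benjamini-Hochberg adjustment over 34915 features, at a threshold of 0.05. The smallest adjusted p among them was 0.381, and 0% of all features passed. The clearest differences were those of Aqp4 and Aqp2. The brightest probe of Aqp4, the basolateral channel, was 1.52-fold brighter in DNPT rats, while another of its probes was lower without overlap (a change of -0.43). Aqp2, the vasopressin-regulated channel, was 1.26-fold dimmer, while the 6 genes used as principal cell markers had positive changes. Of the 9 changes, 5 were positive and 4 negative, from -0.34 to 0.61. Their median was 0.10, against 0.011 over all features. With the mean of its tested probes Aqp4 was at 0.38. That mean includes A_64_P018751, which was well above background on 1 of 3 vehicle arrays and passed the filter through the DNPT arrays. In 1 gene, Aqp4, every DNPT rat exceeded every vehicle rat, and in 0 genes was every DNPT rat lower. Over all features these shares were 11.9% and 8.32%, so that 1 in 9 is close to the background. An unadjusted p under 0.05 was reached by Aqp4 on the higher side, where 5.95% of all features reached it, and by no gene on the lower side, where 6.16% did. The median absolute change was 0.21 for the 9 genes and 0.16 for all features.

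**Figure D1:**
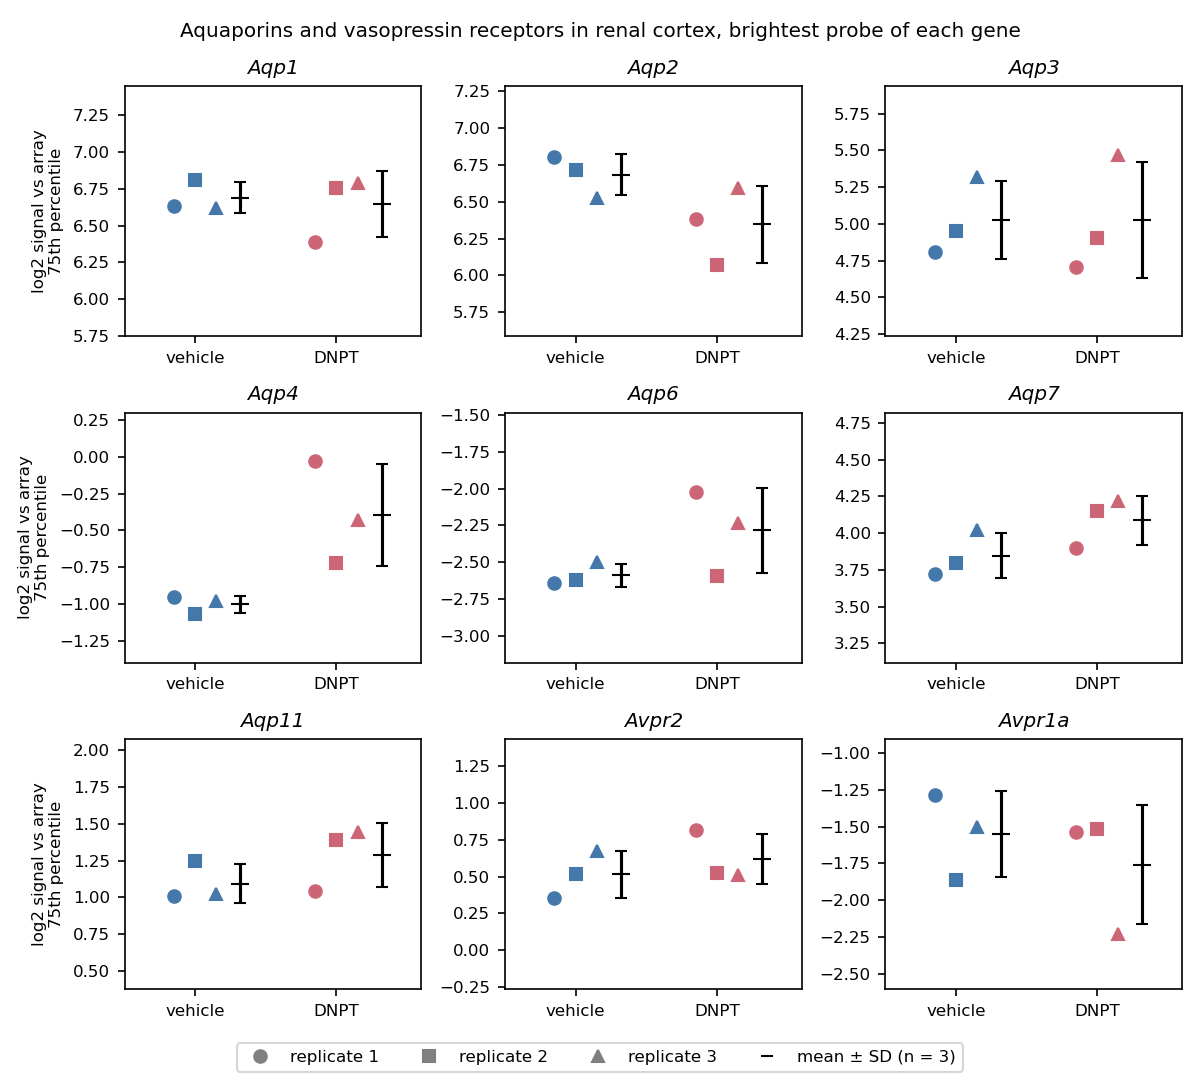
Log2 signal relative to the array's 75th percentile (vertical axis) of the brightest probe of each of the 9 genes in 3 vehicle and 3 DNPT rats, with the symbol marking the replicate number and the bar the mean ± SD. Each panel spans the same height, and Aqp4 is the gene in which the 2 groups do not overlap, with DNPT values from -0.72 to -0.029 above vehicle values from -1.07 to -0.96.

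Aqp2 is the apical water channel of principal cells and is seen by 2 probes. On the brighter, A_64_P007189, the log2 signal was 6.81, 6.72 and 6.53 in vehicle replicates 1 to 3 and 6.38, 6.07 and 6.59 in DNPT replicates 1 to 3. DNPT replicates 1 and 2 lay below every vehicle rat, while DNPT replicate 3 fell within the vehicle range. The change was -0.34 (SE 0.16, 95% interval -0.73 to 0.055, limma adjusted p = 0.438). The overlap depends on the processing. Groups did not overlap with quantile normalization (-0.465, limma adjusted p = 0.423), with normexp and quantile normalization (-0.467, 0.351) or with the mean of both probes (-0.440, 0.414). Under these settings 18.6%, 19.1% and 19.6% of all features were without overlap. On the second probe, A_42_P763077, the signal was 4.31, 4.24 and 3.97 in vehicle rats and 3.79, 3.35 and 3.75 in DNPT rats, so that the groups did not overlap. The change of that probe was -0.54 (SE 0.16, limma adjusted p = 0.380 over 44305 probes), a signal 1.46-fold lower. DNPT replicate 1, the rat that shares its slide with the vehicle rats, was 0.30 below their mean on the brighter probe (a difference of -0.30) and 0.38 below on the other (-0.38). In whole tissue, fewer cells of a type and less RNA per cell cannot be told apart.

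The genes used as markers of the principal cell lay on the opposite side. This holds for the genes of that list and depends on which genes were put in it. The potassium channel Kcnj1, counted here with the thick limb only, was lower without overlap (change -0.35, SE 0.14), on the side of Aqp2. Aqp3, Aqp4 and Avpr2, also of these cells, were not among the markers and are given below. All 6 measured markers had positive changes, with a median of 0.45 (0.36 with quantile normalization), and 4 of the 6 were without overlap, although none passed the test. Of features above background on all 6 arrays, 12.9% were without overlap on the higher side and 7.77% on the lower. Counts in the other marker lists are to be read against these shares. All tested markers of intercalated cells, red cells and the first proximal tubule segments also had positive changes under the scaling used here. Scnn1g, a subunit of the epithelial sodium channel, was at 2.00, 2.27 and 2.37 in vehicle rats and 2.85, 2.66 and 2.78 in DNPT rats (change 0.55, SE 0.12, limma adjusted p = 0.334). Its partner subunit Scnn1b had a change of 0.41 (SE 0.12, adjusted p = 0.374). Hsd11b2, which inactivates glucocorticoids in these cells, had a change of 0.49 (SE 0.16), and Elf5, a transcription factor of principal cells, one of 0.65 (SE 0.15). The changes of Kcne1 and Gata3 were 0.26 and 0.19, with overlapping groups, and the other Gata3 probe gave 0.61. The summed signal of the 6 markers ran from 47.3 to 63.9 in vehicle rats and from 77.4 to 79.7 in DNPT rats, in units of the array's 75th percentile.

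Set against these markers within each array, Aqp2 was lower in every DNPT rat. The log2 signal of its brighter probe minus the mean of the 6 markers was 5.59, 5.34 and 5.15 in vehicle rats and 4.62, 4.36 and 4.80 in DNPT rats. The means were 5.36 ± 0.22 and 4.60 ± 0.22 (SD, n = 3 each), a difference of -0.76 (SE 0.18, two-sided exact permutation p = 0.1). With the second probe the difference was -0.97 (SE 0.19, two-sided exact permutation p = 0.1), also without overlap. With 3 rats against 3, 0.1 is the smallest p that this test can give, and adjusted over the 5 comparisons of this kind it was 0.125. The comparison was chosen after the values were seen. Within slide 1 the differences were -0.73 and -0.81 for DNPT replicate 1, and with the 4 markers that are not also regulators of Aqp2 transcription they were -0.76 and -0.97. Such a difference within an array shows unequal change of Aqp2 and the markers, not which of them moved.

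**Figure D2:**
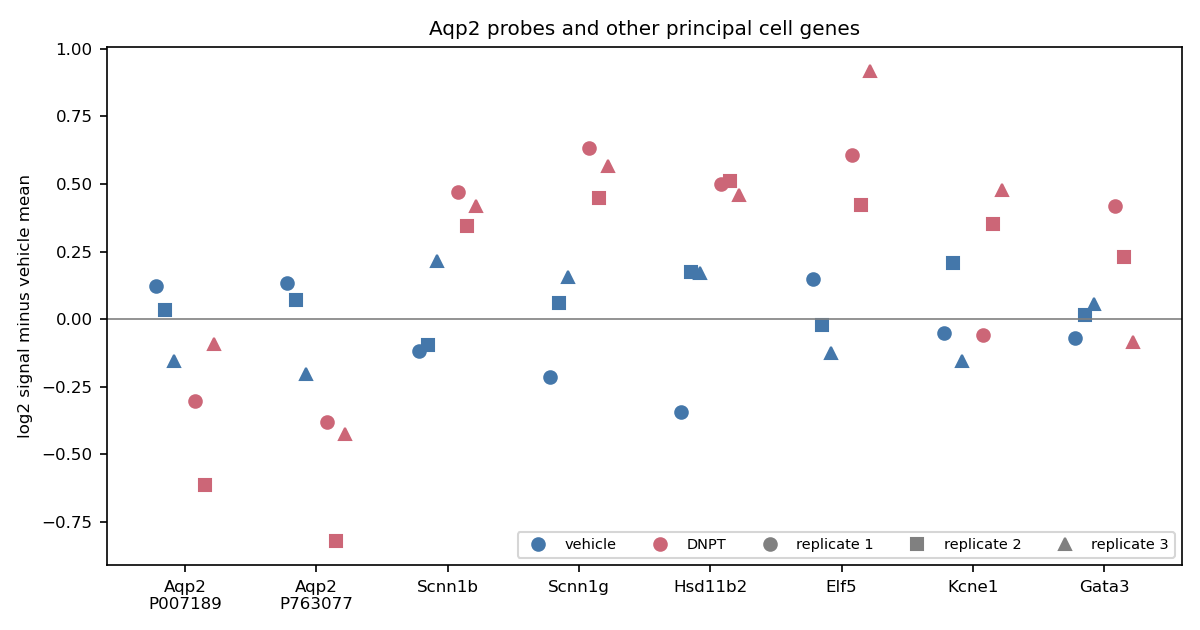
Log2 signal minus the vehicle mean of the same probe (vertical axis) for the 2 Aqp2 probes and 6 other principal cell genes, in vehicle (blue) and DNPT (red) rats, 1 point per rat. The DNPT points of both Aqp2 probes lie below 0 (changes of -0.34 and -0.54), and those of Scnn1b, Scnn1g, Hsd11b2 and Elf5 lie above every vehicle point of the same gene.

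The sequences just upstream of Aqp2 and of Scnn1g are shown because these genes of 1 cell type lay on opposite sides in the DNPT rats. Each is the 250 bases before the RefSeq transcript start in assembly GRCr8, 5′ to 3′ on the plus strand, at chr7:132590036-132590285 for Aqp2 and chr1:185735975-185736224 for Scnn1g. Capitals mark matches, on either strand, to the cAMP response element TGACGTCA or its half-site TGACG, to the GATA motif AGATAA, to the NFAT core TGGAAA or to the E-box CACGTG.
Aqp2: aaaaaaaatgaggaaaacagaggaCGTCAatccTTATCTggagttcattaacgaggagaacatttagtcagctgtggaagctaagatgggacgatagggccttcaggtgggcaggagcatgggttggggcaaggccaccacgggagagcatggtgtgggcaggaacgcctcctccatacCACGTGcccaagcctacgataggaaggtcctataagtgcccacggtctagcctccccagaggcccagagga
Scnn1g: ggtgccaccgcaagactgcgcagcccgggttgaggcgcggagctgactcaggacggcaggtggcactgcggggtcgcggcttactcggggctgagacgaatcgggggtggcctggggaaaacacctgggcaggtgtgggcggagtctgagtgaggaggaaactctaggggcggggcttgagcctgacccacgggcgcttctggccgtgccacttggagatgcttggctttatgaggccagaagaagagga
The Aqp2 window held 1 half-site starting at -226, 1 GATA motif at -217 and 1 E-box at -71, counted from the transcript start, and no full cAMP response element or NFAT core. The Scnn1g window held none of the 5 motifs. That of Scnn1b, whose change had the same sign as that of Scnn1g, held 1 half-site at -146. Whether any of these motifs bears on the changes was not tested. Of 33469 upstream windows of the same length, 18.22% held the half-site, which every full element also contains, 10.3% the GATA motif, 19.7% the NFAT core, 5.59% the E-box and 1.59% the full element. A match describes letters only and is no evidence of binding.

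Genes that place collecting duct tissue from deeper in the kidney were measured beside Aqp2. Of the 5 inner medulla genes, Slc14a2, the urea transporter of the terminal collecting duct, had a change of -0.26 (SE 0.10) without overlap, while Slc6a6, a taurine transporter, had a change of 0.45 (SE 0.16) without overlap. The remaining 3 had overlapping groups, among them Slc6a12, the betaine transporter, with a change of -0.21 (SE 0.11). Their median change was -0.096, and the summed signal ran from 5.86 to 6.85 in vehicle and from 6.62 to 7.54 in DNPT rats. The 4 urothelium genes tested had changes of -0.24 to -0.070 (median -0.13), led by Upk1b with -0.24 (SE 0.16), whose other probe gave 1.12, Krt5 with -0.13 (SE 0.21) and Upk3a with -0.070 (SE 0.14). They had summed signals of 0.40 to 0.56 in vehicle and 0.39 to 0.41 in DNPT rats, and Upk2 was not above background on any array. Their part in the Aqp2 values was not tested.

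Avpr2, the vasopressin receptor that drives Aqp2, had overlapping groups. On its brighter probe the log2 signal was 0.35, 0.52 and 0.68 in vehicle rats and 0.82, 0.53 and 0.51 in DNPT rats. DNPT replicate 1 was the highest of the 6 rats, and the other DNPT rats lay within the vehicle range. The change was 0.10 (SE 0.13, 95% interval -0.22 to 0.43, limma adjusted p = 0.754), and the second probe gave 0.056 (SE 0.14). Within slide 1 DNPT replicate 1 was higher by 0.30. Relative to the 6 principal cell markers Avpr2 was at -0.86, -0.87 and -0.71 in vehicle rats and -0.94, -1.18 and -1.27 in DNPT rats, a difference of -0.32 (SE 0.11, two-sided exact permutation p = 0.1, adjusted over the 5 comparisons 0.125). Set against the markers within slide 1, the difference was -0.13. The marker mean itself ran from 1.22 to 1.38 in vehicle rats and from 1.71 to 1.79 in DNPT rats. A gene that changes little is thus also lower relative to it, and the difference does not show a fall of Avpr2.

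Aqp3, an aquaglyceroporin of the basolateral membrane of principal cells, had the same mean in both groups. Its log2 signal was 4.81, 4.95 and 5.32 in vehicle rats and 4.71, 4.91 and 5.47 in DNPT rats, or 5.03 ± 0.26 and 5.03 ± 0.39 (SD, n = 3 each). Rats of 1 group differed among themselves by more than the groups did, with the highest value in replicate 3 of each. The 95% interval of the change, -0.59 to 0.59, covers changes as large as that of Aqp2, and DNPT replicate 1 differed from the vehicle rats of its slide by -0.32. Relative to the 6 markers, whose mean was higher in every DNPT rat, Aqp3 had a difference of -0.42 (SE 0.25, two-sided exact permutation p = 0.3). The groups overlapped, and within slide 1 that difference was -0.75.

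Aqp4, the second basolateral channel of principal cells and the main water channel of astrocytes, is covered by 6 probes, and these disagreed. On the brightest, A_44_P561166, the log2 signal was -0.96, -1.07 and -0.98 in vehicle rats and -0.029, -0.72 and -0.43 in DNPT rats. The vehicle rats lay close together and every DNPT rat lay above them, with replicate 1 the highest. The change was 0.61 (SE 0.18, 95% interval 0.16 to 1.06, limma adjusted p = 0.381), and within slide 1 it was 0.97. On another probe, A_64_P036063, it was -1.98, -1.83 and -1.95 in vehicle rats and -2.01, -2.47 and -2.56 in DNPT rats, again without overlap but on the lower side. The change of that probe was -0.43 (SE 0.16, limma adjusted p = 0.413 over 44305 probes). It rested on slide 2, since DNPT replicate 1 was -0.088 from the vehicle mean on it.

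The other Aqp4 probes were dim. A_44_P819726, above background on all 6 arrays, had a change of 0.29 (SE 0.24) with overlapping groups. A_64_P018751 was well above background on 1 of 3 vehicle arrays and 3 of 3 DNPT arrays, with signals of -5.83, -6.14 and -6.51 in vehicle rats and -4.94, -5.09 and -5.29 in DNPT rats. It passed the filter through the DNPT arrays, so these values are given without a test. A_44_P448461 and A_44_P934428 were not well above background on any array and were not tested. Within each array the log2 signal of A_44_P561166 minus that of A_64_P036063 was 1.02, 0.76 and 0.97 in vehicle rats and 1.98, 1.75 and 2.13 in DNPT rats. That difference between probes of 1 gene changed by 1.04 (SE 0.14, two-sided exact permutation p = 0.1, adjusted over the 5 comparisons 0.125), by 1.06 within slide 1, and was also chosen after the values were seen. The tested Aqp4 probes all carry the accession of the same transcript, so the direction for Aqp4 as a gene depends on the probe.

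**Figure D3:**
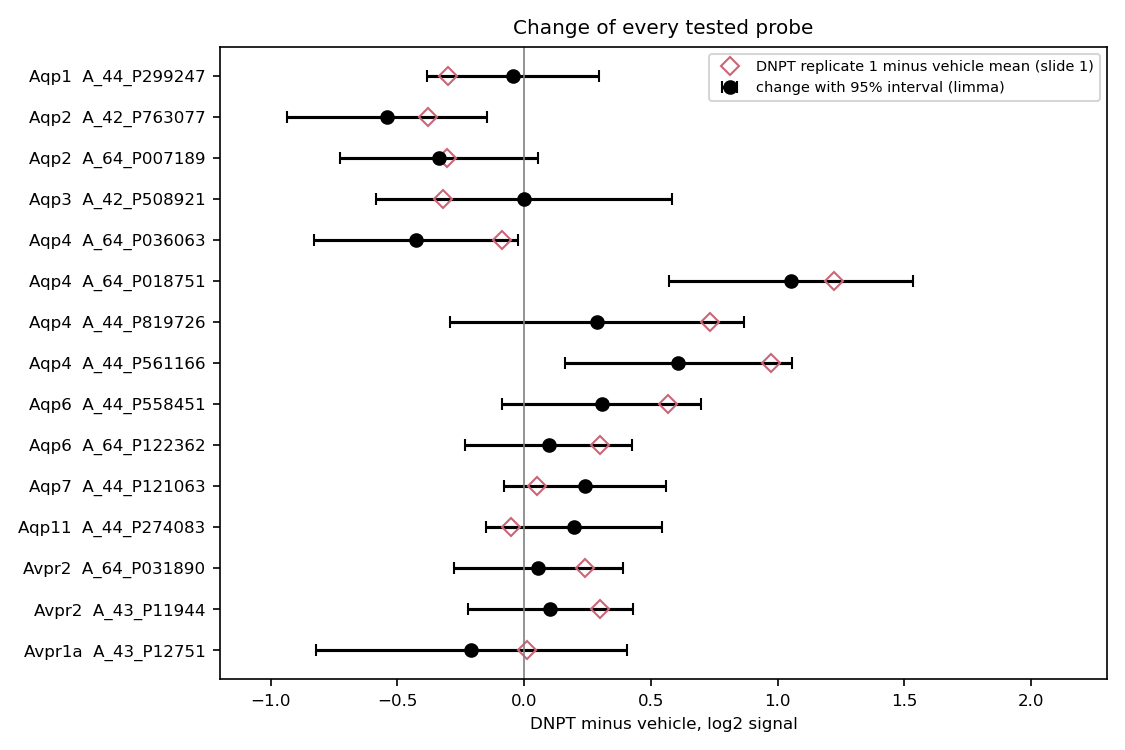
Change of each of the 15 tested probes (horizontal axis, DNPT minus vehicle, log2 signal), as the limma estimate with its 95% interval (black) and as DNPT replicate 1 minus the vehicle mean within slide 1 (open diamonds). The Aqp2 probes lie below 0, and of the Aqp4 probes those above background on all 6 arrays run from -0.43 to 0.61, while A_64_P018751, farthest to the right, was above background on 1 of 3 vehicle arrays.

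Over all probes of the 9 genes, 15 of 17 passed the filter and 0 passed the test, as did 0% of the 44305 probes. Of the 14 probes well above background on all 6 arrays, groups did not overlap in 1 on the higher side, of Aqp4, and in 2 on the lower side, 1 each of Aqp2 and Aqp4. Among all probes above background on all 6 arrays 12.3% and 7.9% did so. The same 3 probes had an unadjusted p under 0.05, against 6.0% of such probes on the higher and 5.48% on the lower side.

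Aqp6, a channel of intracellular vesicles in acid-secreting intercalated cells, had log2 signals of -2.64, -2.62 and -2.50 in vehicle rats and -2.02, -2.60 and -2.23 in DNPT rats. DNPT replicates 1 and 3 were above every vehicle rat and DNPT replicate 2 lay among them. The change was 0.31 (SE 0.16, 95% interval -0.089 to 0.70, limma adjusted p = 0.463), and the second probe gave 0.10 (SE 0.13). Within slide 1 DNPT replicate 1 was higher by 0.57. In GRCr8 Aqp6 lies next to Aqp5 and Aqp2, so 3 aquaporin genes stand in a row, and in these rats the changes of Aqp2 and Aqp6 had opposite signs. Of features above background on all 6 arrays, 12.9% were without overlap on the higher side. The 6 intercalated cell markers all had positive changes (median 0.37, or 0.30 with quantile normalization), with 3 of 6 without overlap. They were led by Atp6v1g3, a proton pump subunit, with 0.49 (SE 0.16), the bicarbonate transporter Slc4a9 with 0.39 (SE 0.14) and the anion exchanger Slc26a4 with 0.36 (SE 0.13), and their summed signal ran from 122 to 159 in vehicle and from 163 to 184 in DNPT rats. Their part in the Aqp6 values was not tested.

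Aqp1, the constitutive channel of the proximal tubule, had overlapping groups. Its log2 signal was 6.63, 6.81 and 6.62 in vehicle rats and 6.39, 6.76 and 6.79 in DNPT rats. DNPT replicate 1 was the lowest of the 6 and the other DNPT rats lay within the vehicle range. The change was -0.044 (SE 0.14, 95% interval -0.38 to 0.30, limma adjusted p = 0.905), and within slide 1 it was -0.30. It was -0.19 with quantile normalization and -0.25 with normexp and quantile normalization, the latter without overlap (limma adjusted p = 0.361). Red blood cells and the endothelium of the descending vasa recta also carry Aqp1. The 5 red cell genes tested all had positive changes, with a median of 0.34 (0.21 with quantile normalization) and summed signals of 544 to 670 in vehicle and 701 to 788 in DNPT rats, led by the globin chaperone Ahsp with 0.84 (SE 0.22) and the globins Hbb-b1 with 0.36 (SE 0.10) and Hba-a1 with 0.34 (SE 0.12). The 6 endothelial genes had a median change of 0.10 with 1 of 6 without overlap, Emcn, and summed signals of 71.8 to 75.4 in vehicle and 75.5 to 92.0 in DNPT rats, with the growth factor receptor Kdr at 0.25 (SE 0.12), Pecam1 at 0.13 (SE 0.097) and Cdh5 at -0.18 (SE 0.15). What these cells contribute to the Aqp1 signal was not tested.

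Aqp7, an aquaglyceroporin of the last proximal tubule segment that takes glycerol back from the filtrate, had log2 signals of 3.72, 3.80 and 4.02 in vehicle rats and 3.90, 4.15 and 4.21 in DNPT rats. DNPT replicates 2 and 3 were above every vehicle rat and DNPT replicate 1 was within their range. The change was 0.24 (SE 0.13, 95% interval -0.081 to 0.56, limma adjusted p = 0.471), and within slide 1 it was 0.051. Its neighbour on the chromosome is Aqp3. All 4 markers of the last segment had negative changes with overlapping groups (median -0.24), but their median was 0.070 without DNPT replicate 1 and -1.09 within slide 1, so that its sign rested on that rat. Among them were Slc3a1, a cystine transporter subunit, at -0.14 (SE 0.12), the lactate transporter Slc5a8 at -0.31 (SE 0.41) and the anion transporter Slc22a7 at -0.50 (SE 0.68), and their summed signal ran from 217 to 276 in vehicle and 194 to 276 in DNPT rats. Of the earlier segments' 5 markers, all with positive changes under the scaling used here and summed signals of 593 to 667 in vehicle and 699 to 732 in DNPT rats, 2 were without overlap, namely the glucose transporter Slc5a2 (0.42, SE 0.11) and the endocytic receptor Lrp2 (0.077, SE 0.072), and the third by p was its partner Cubn (0.14, SE 0.15). Fat cells also carry Aqp7. Of 5 adipocyte genes 3 were tested, Adipoq with -0.19 (SE 0.14), Fabp4 with -0.62 (SE 0.88) and Cidec with -0.58 (SE 0.85), and their summed signal was 0.84 to 1.48 in vehicle and 0.74 to 1.31 in DNPT rats, with Lep not above background on any array.

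Aqp11, a channel of the endoplasmic reticulum whose loss gives cystic kidneys in mice, had log2 signals of 1.01, 1.25 and 1.02 in vehicle rats and 1.04, 1.39 and 1.44 in DNPT rats. Here too DNPT replicates 2 and 3, both of slide 2, were above every vehicle rat while DNPT replicate 1 was not. The change was 0.20 (SE 0.14, 95% interval -0.15 to 0.54, limma adjusted p = 0.565), and within slide 1 it was -0.053. For Aqp7 and Aqp11 the larger values of slide 2 and those of DNPT treatment cannot be told apart.

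Avpr1a, the receptor that raises intracellular calcium in vascular smooth muscle, hepatocytes and some tubule cells, had log2 signals of -1.28, -1.86 and -1.50 in vehicle rats and -1.54, -1.51 and -2.23 in DNPT rats. DNPT replicate 3 was the lowest of the 6, and the other DNPT rats lay inside the vehicle range. The change was -0.21 (SE 0.25, 95% interval -0.83 to 0.41, limma adjusted p = 0.733), and without DNPT replicate 3 it was 0.024. Within slide 1 it was 0.013. The same rat stood apart in hepatocyte genes, whose summed signal was 24.8 in DNPT replicate 3 against 1.03 to 3.63 in the other 5 rats. Of those 6 genes, 5 had positive changes (median 0.86, but -0.93 without DNPT replicate 3 and 0.31 within slide 1), with the plasma protein genes Apoa1 at 1.39 (SE 0.99), Fgb at 0.66 (SE 0.51) and Alb at 1.29 (SE 2.40). The 4 smooth muscle genes tested had a median change of 0.052 and summed signals of 2.33 to 2.90 in vehicle and 2.54 to 2.90 in DNPT rats, with Myh11 at 0.34 (SE 0.12, probes from -0.14 to 0.83), Acta2 at -0.24 (SE 0.15) and Des at 0.063 (SE 0.12). Whether these move Avpr1a was not tested.

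Other genes of the water channel pathway were read from 7 lists with 75 tested genes. None was called, and the median change was 0.043. Of the 73 that were well above background on all 6 arrays, 12 were without overlap on the higher side and 5 on the lower, where 12.9% and 7.77% of all such features were. The counts in the lists below are to be read against these shares. Of 18 genes from the V2 receptor to cAMP and protein kinase A, 17 were tested, 9 with positive and 8 with negative changes (median 0.043), and of the 16 above background on all 6 arrays 4 were without overlap on the higher and 3 on the lower side. Adcy3, an adenylyl cyclase, was well above background on 1 of 3 vehicle and 3 of 3 DNPT arrays and passed the filter through the latter, so its signals of -5.93, -5.56 and -5.91 in vehicle and -4.93, -5.05 and -4.60 in DNPT rats are given without a test. Akap13, an anchor of protein kinase A, had a change of 0.39 (SE 0.11, adjusted p = 0.374) and Crem, a cAMP-responsive transcription factor, one of -0.32 (SE 0.093, adjusted p = 0.377). The kinase's regulatory subunit Prkar2b, named after its values were seen, was at -0.64 (SE 0.22), and its 3 probes ran from -1.05 to -0.54.

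Of 10 regulators of Aqp2 transcription 9 were tested, 5 with positive and 4 with negative changes (median 0.0022). Besides Elf5, Gata2 was without overlap on the higher side (0.39, SE 0.14, limma adjusted p = 0.401). Of 27 genes that carry Aqp2 to and from the membrane or degrade it, 25 were tested, 16 with positive changes (median 0.056), and 3 were without overlap, each higher. They were the vesicle SNARE Vamp3 (0.34, SE 0.084, limma adjusted p = 0.353), the endocytic GTPase Dnm2 (0.17, SE 0.077) and the membrane linker Ezr (0.16, SE 0.088), but other probes of Dnm2 and Ezr reached down to -0.11 and -0.0044.

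**Figure D4:**
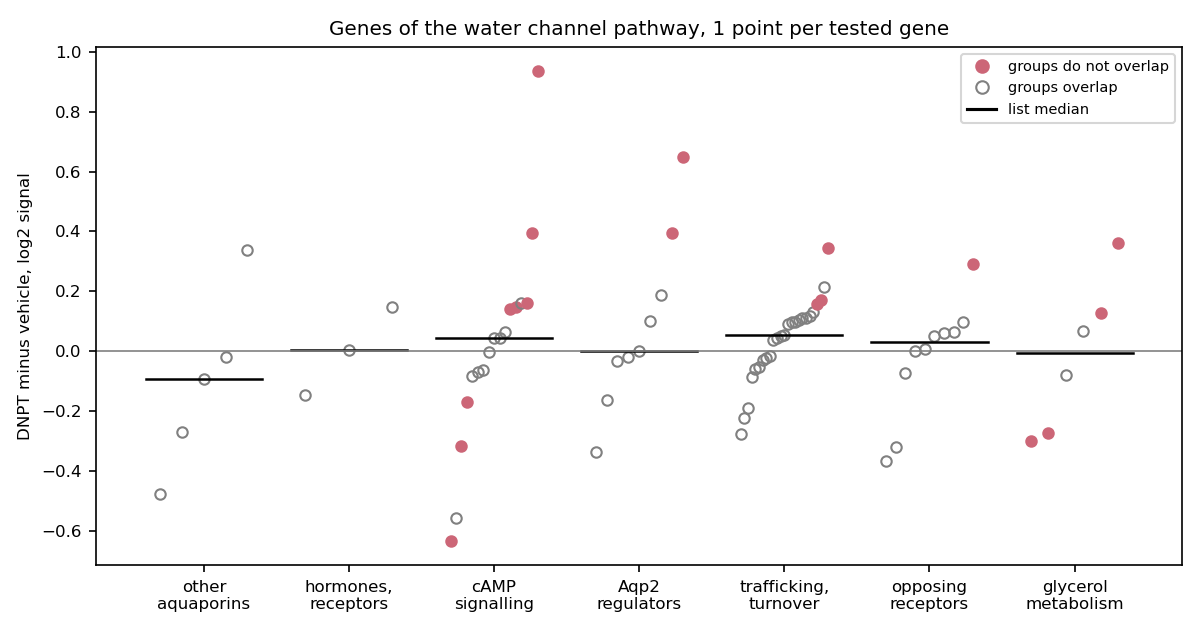
Change of each tested gene (vertical axis, DNPT minus vehicle, log2 signal) in 7 lists of the water channel pathway, with filled points for genes whose groups do not overlap and a line at the list median. The list medians lie between -0.093 and 0.056, and cAMP signalling spans -0.64 to 0.39 without its top point, Adcy3, which was above background on 1 of 3 vehicle arrays.

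Receptors and prostaglandin enzymes that oppose vasopressin in the collecting duct were tested for 10 of 11 genes, 6 with positive changes (median 0.030). Ptgs1, a prostaglandin synthase, was without overlap on the higher side by its brightest probe (0.29, SE 0.11, limma adjusted p = 0.408), while its other probe gave -0.81. The adrenergic receptors Adra2b and Adra2a were at -0.37 (SE 0.16) and -0.32 (SE 0.33), both with overlap. Of the 6 glycerol metabolism genes 2 were without overlap on each side (list median -0.0058). The lipase Pnpla2 was at 0.36 (SE 0.099, limma adjusted p = 0.361), and the lipases Mgll and Lipe were at -0.27 (SE 0.11) and -0.30 (SE 0.14), where the Lipe probes ran from -0.30 to 0.19. Of the 5 other aquaporins 0 were without overlap and 4 had negative changes (median -0.093), with Aqp12a at -0.27 (SE 0.14), Aqp8 at -0.48 (SE 0.30) and Aqp9, the liver aquaglyceroporin, at 0.34 (SE 0.63). Aqp9 reached -3.10 in DNPT replicate 3, the rat with high hepatocyte genes, and -5.37 to -4.62 in the other rats. Oxt, Avp and Oxtr, the 3 tested of 5 hormone and receptor genes, were at 0.15 (SE 0.16), -0.15 (SE 0.21) and 0.0037 (SE 0.15), the last also the list median.

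The genes whose values over the 6 rats ran closest to 3 of the members were sought among 11827 other named genes, as a description. For Aqp2 they were Flii (Pearson r = 0.980), Mcoln3 (0.979), Klrd1 (0.977), Zfp458 (0.975) and Sec14l1 (0.973). None of them is on the lists for the principal cell or for the vasopressin pathway, and Aqp3 had a correlation of 0.14 and Avpr2 one of -0.43 with Aqp2. For Aqp1 they were Pcyt1a (0.999), Tsku (0.995), Exo5 (0.991), Pef1 (0.973) and Cst3 (0.971), and for Avpr1a they were Eid3 (0.997), Pglyrp4 (0.991), Slc37a1 (0.987), Dop1b (0.985) and Syk (0.982). These are the highest of a search over many genes with 6 points that share groups and slides, and carry no test.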

How the data were processed

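Per the labels' protocols, RNA of each rat's renal cortex was amplified, labelled with Cy3 and hybridised. Scans were read with Agilent Feature Extraction 10.7, per the submitters' processing notes. The deposited scanner files give each spot's linear intensity, of which the software's processed signal was used, per the file headers. The deposited value table, whose making is not stated, holds a ratio that was found to equal the processed signal divided by 1.0009 to 1.0017 times the array's 75th percentile (column medians 0.112 to 0.116), so its scale and direction are known and it is not centred by gene. The 113 values marked as outliers were left out, and no probe representing the 9 genes was saturated.

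Probes were named by accession through a RefSeq table of GRCr8, which names 28206 of 61537. A probe was tested if well above background on at least 3 of 6 arrays, and a gene was represented by its brightest tested probe. Log2 processed signal minus each array's 75th percentile was compared between groups with lmFit and eBayes of limma 3.58.1 (R 4.3.3), two-sided, no covariates, adjusted by Benjamini-Hochberg over all 34915 features, or over 44305 probes where a second probe is given. Exact permutation tests used scipy 1.17.1. The fit was tested on simulated data. Alternatives were other scalings, filters, probe rules and blocks, and each rat left out. Members, lists and named genes (all members, and the 3 list genes with the smallest p, some of which are not reported here) were chosen with earlier results of these data known.
The 5 comparisons within arrays were added after the values were seen. P-values rest on the spread between these 6 rats, which in the DNPT group also holds slide and scan day. Those of limma also draw on the spread over all features.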

Additional observations from a re-analysis of the deposited data

How the results depend on the processing

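None of the 9 genes passed under the main setting or any of the 17 alternatives chosen at the outset. Aqp2 (-0.47 to -0.20), Aqp4 (0.38 to 0.97), Aqp6 (0.18 to 0.57), Aqp7 (0.051 to 0.33) and Avpr2 (0.0041 to 0.30) kept their sign in all 17. The 17 are not separate checks of sign. The other filters, a variance trend with intensity and the replicate block left these changes at their main values. The deposited value table holds the same signals rescaled, and slide as a block gave the same changes as slide 1 alone. All settings but the mean of tested probes used the brightest probe of each gene. For Aqp4 that mean (0.38) includes A_64_P018751, which passed the filter through the DNPT arrays. Its probe A_64_P036063 was at -0.43 under the main setting, so the kept sign is that of the brightest probe and not of the gene. Aqp3 was at 0.021 with median scaling, and with a rat left out ran from -0.22 to 0.16. Leaving out 1 rat gave -0.12 to 0.085 for Aqp1 (0.085 without DNPT replicate 1), which was at -0.19 with quantile normalization and -0.25 with normexp, and -0.37 to 0.024 for Avpr1a. With slide as a block, and on slide 1 alone, Aqp11 was at -0.053 and Avpr1a at 0.013. Over all features 5 passed with normexp and quantile normalization, 1 with slide as a block and 0 to 623 with a rat left out, 623 without DNPT replicate 1 and 3 without vehicle replicate 2. Of the 9 genes, 2 were without overlap with quantile normalization, 3 with normexp, 2 with the mean of tested probes, 6 on slide 1 alone, where 1 DNPT rat is compared, and 1 to 4 with a rat left out (4 without vehicle replicate 3). Of all features 20.2% were without overlap, and under these settings 18.6%, 19.1%, 19.6%, 54.7% and 27.7% to 42.8%, so that these counts cannot be read without those shares. Of the 75 pathway genes tested, 18 were without overlap, among them Adcy3, which passed the filter through the DNPT arrays. With only features well above background on all 6 arrays the count was 17. It was 37 on slide 1 alone and 22 to 34 with a rat left out (34 without DNPT replicate 1, 29 without vehicle replicate 3), and these counts were made with Adcy3 among the tested genes. Without DNPT replicate 1 the DNPT rats are all of slide 2 and the vehicle rats all of slide 1. Treatment, slide and scan day cannot be told apart in that setting. Leaving out DNPT replicate 2 or DNPT replicate 3, with groups of the same size, gave 0 features each. The cause of these moves was not tested. With the replicate number as a block (replicate block), 0 features passed (3094 with an unadjusted p under 0.05, against 4227 without it). Same-numbered rats correlated at -0.18, -0.06 and -0.18 in their deviations from the group means, and other pairs at -0.20 to 0.33. These values cannot decide whether the numbers pair the rats. The deviations of 3 rats cancel by construction, and DNPT replicates 2 and 3 are of another slide. Aqp2 relative to the principal cell markers stayed between -0.87 and -0.64, added after seeing the data.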
